A study of Mus musculus with 19 samples.

Results

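The TNF receptor superfamily costimulators are 7 genes: Tnfrsf4 (OX40), Tnfrsf9 (4-1BB), Tnfrsf18 (GITR), Tnfrsf1b (TNFR2), Tnfrsf8 (CD30), Tnfrsf25 (DR3) and Cd27. They were chosen by name, and all 7 are listed among the 14290 genes with library values in one table and the 14818 in the other. They were followed through 9 groups and 19 RNA-seq libraries from mouse Tregs, regulatory T cells of the CD4 lineage that hold immune responses in check. Each cell carried Foxp3-CRE-YFP on a C57Bl/6 background, so Cre and the yellow reporter were made where Foxp3 is expressed. The floxed strains are labelled c-Rel F/F and p65 F/F, for the NF-kB subunits encoded by Rel and Rela. The stimulated set held 2 libraries of wild-type (WT) Tregs with pentoxifylline (PTXF) at 500 ug/mL, 2 of c-Rel-deficient Tregs, and 2 of WT Tregs with the water diluent. Those cells had spent 16 hours on plate-bound anti-CD3 with soluble anti-CD28 and IL-2. The sorted set was taken from spleen and lymph nodes with no culture. It held activated cells (aTreg, CD44 high) in 2 p65-deficient, 2 c-Rel-deficient and 3 WT libraries, and resting cells (rTreg, CD44 low) in 2 libraries of each genotype. Ages and sexes of the mice are not given in the labels.

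Receptors of this family sit on the T cell surface and are engaged by trimeric ligands on antigen-presenting and other cells. Most of them recruit TRAF adaptors, which start canonical and alternative NF-kB signalling, and they add survival and growth signals to those of the T cell receptor. Tregs are known for high surface levels of GITR, OX40 and TNFR2, and several of the genes are themselves induced by T cell activation. NF-kB subunits therefore lie both downstream of these receptors and among the factors that can act on their genes. Pentoxifylline, a methylxanthine that inhibits phosphodiesterases, is the drug of the series.

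Values are RPKM, reads scaled by gene length and library size, which can be compared between genes. In the sorted set they had been adjusted further by the authors in a way that acts on replicate numbers, and some lie below 0. Differences were fitted in limma within each set on log2(RPKM + 0.5), a scale that understates the change of weakly expressed genes, and a gene was called at a Benjamini-Hochberg adjusted p under 0.05 over all tested genes. All 7 genes passed the filter of 1 RPKM in 2 libraries in both sets. The labels do not say that replicates came from separate animals, so each p-value speaks of the spread among these libraries. In bulk RNA, fewer cells of a type and less RNA per cell cannot be told apart.

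Libraries of a group were not alike in all respects. Rel stood at 2.44 and 24.96 RPKM in the 2 stimulated c-Rel-deficient libraries, against 55.1 and 55.8 RPKM in water, so replicate 2 kept much of the transcript that its label says is lost. In the sorted set Rel was between 1.39 and 5.37 RPKM in the 4 c-Rel-deficient libraries and between 10.9 and 22.0 RPKM in the 5 WT libraries. Rela was 69.4 and 59.9 RPKM in p65-deficient rTregs and 71.5 and 69.0 RPKM in WT rTregs. In aTregs Rela was 46.8 and 56.1 RPKM in p65-deficient libraries and 68.3, 62.3 and 64.2 RPKM in WT libraries. One value stands for each gene, so a deleted stretch need not lower it, and the p65 labels are not borne out by Rela. Xist, the X-inactivation transcript, was 0.00965 and 22.3 RPKM in the PTXF libraries, 0.0111 and 0.0209 RPKM in the c-Rel-deficient ones and 0.0153 and 18.7 RPKM in the water ones. Ddx3y, a gene of the Y chromosome, was 39.7 and 6.33 RPKM in the PTXF libraries and 27.8 and 2.73 RPKM in the water ones. In the c-Rel-deficient libraries Ddx3y was 23.7 and 27.7 RPKM. The replicates within both WT groups of the stimulated set thus differed in both transcripts. Both c-Rel-deficient libraries were like replicate 1 of each WT group, with low Xist and high Ddx3y. The part of these transcripts in the receptor values was not tested. Treg markers were present throughout, and among B cell genes Ms4a1 and Pax5 were under 0.5 RPKM in each library. Others of that list were not: Cd79b was 2.48 to 7.94 RPKM in the stimulated libraries, 14.0 to 22.1 RPKM in aTregs and 8.59 to 16.6 RPKM in rTregs. Cd22 was 1.61 to 5.78 RPKM in aTregs and 0.268 to 0.726 RPKM in rTregs, and Cd79a at most 2.49 RPKM in any library. Both Cd22 and Cd79b thus lay higher in aTregs of each genotype on average, and the part of such cells in the subset differences was not tested.

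Of the 7 genes 6 share a chromosome. On GRCm38 (the build also called mm10) they span 10.82 Mb of chromosome 4, and Cd27 lies on chromosome 6 (125232622 to 125237010, minus strand). Tnfrsf1b (145213463 to 145246870) and Tnfrsf8 (145267137 to 145315164) are neighbours on the minus strand with 20.3 kb between them. Tnfrsf9 (150914562 to 150946102) and Tnfrsf25 (152115934 to 152120119) are on the plus strand. Tnfrsf4 (156013843 to 156016612) and Tnfrsf18 (156026164 to 156028895) are a pair on the plus strand, 9.6 kb apart. All 7 are annotated as protein-coding in GENCODE M21. Camta1 overlaps Tnfrsf9 on the opposite strand, the antisense gene Gm16008 overlaps Tnfrsf18, and Vamp1 overlaps Cd27. Counting by strand is not stated, so such reads cannot be told apart. Camta1 reached at most 1.17 RPKM and Vamp1 at most 10.7 RPKM in any library, far below the receptors they overlap.

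The promoters are shown because the study removes NF-kB subunits and Tnfrsf8 gave the widest differences from water or WT after stimulation and in aTregs. RefSeq (GRCm38.p6) lists 9 promoters for them, each running from 250 bases before the start to 50 bases after it. An NF-kB consensus, searched on both strands, was found in 2 of the 9, against 4.505% of 32851 promoters of the same length. These were the Tnfrsf8 promoter (chr4:145315115-145315414, minus strand) and the second Tnfrsf9 promoter (chr4:150927749-150928048, plus strand). The AP-1 motif TGANTCA, also searched on both strands, was in the same 2 promoters and in 7.808% of all. The cAMP response element TGACGTCA was in 0 of 9 (1.79% of all), its core TGACG in 1 promoter of Tnfrsf25 (20.81% of all), and the TATA box TATAAA, searched forward only, in 0 of 9 (8.319% of all). The Tnfrsf4 promoter (chr4:156013445-156013744, plus strand) held none of these motifs and is shown for contrast. Capitals mark the NF-kB match followed by the AP-1 match, and in Tnfrsf9 the first capital run covers 2 overlapping NF-kB matches.
Tnfrsf8: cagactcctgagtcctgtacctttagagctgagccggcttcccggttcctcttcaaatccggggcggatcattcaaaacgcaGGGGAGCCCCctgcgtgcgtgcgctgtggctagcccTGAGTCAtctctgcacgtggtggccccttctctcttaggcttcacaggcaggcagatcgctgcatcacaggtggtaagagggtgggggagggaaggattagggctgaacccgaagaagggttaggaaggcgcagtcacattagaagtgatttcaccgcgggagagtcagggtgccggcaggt
Tnfrsf9: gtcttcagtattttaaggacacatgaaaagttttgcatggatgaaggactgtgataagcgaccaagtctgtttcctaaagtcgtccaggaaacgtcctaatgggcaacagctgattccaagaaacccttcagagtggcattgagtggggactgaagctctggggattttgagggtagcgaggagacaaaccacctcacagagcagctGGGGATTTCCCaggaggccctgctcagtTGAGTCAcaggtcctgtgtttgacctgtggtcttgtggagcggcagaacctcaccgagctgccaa
Tnfrsf4: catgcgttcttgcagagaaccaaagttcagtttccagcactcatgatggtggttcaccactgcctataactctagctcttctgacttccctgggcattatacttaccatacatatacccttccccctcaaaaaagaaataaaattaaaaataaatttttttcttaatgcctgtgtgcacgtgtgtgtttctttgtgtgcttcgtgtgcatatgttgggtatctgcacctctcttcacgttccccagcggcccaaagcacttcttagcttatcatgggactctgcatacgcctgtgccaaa
Counted from the start, the Tnfrsf8 NF-kB match begins at -168 and its AP-1 match at -132. In Tnfrsf9 the NF-kB matches begin at -43 and -42 and the AP-1 match at -15. A match of letters is not a bound site, and the absence of one says nothing of the factor.

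After stimulation the 3 most abundant receptors were Tnfrsf9, Tnfrsf18 and Tnfrsf4 in each of the 6 libraries. Tnfrsf9, which marks recently activated T cells, gave between 30.4% and 55.9% of the summed RPKM of the 7 genes. In the water libraries Tnfrsf9 stood at 1090.0 and 1215 RPKM, Tnfrsf4 at 802 and 1132 RPKM, and Tnfrsf18 at 657 and 886 RPKM. Tnfrsf1b and Cd27 followed well below, with 142 to 211 RPKM and 149 to 185 RPKM over the set. Tnfrsf8 and Tnfrsf25 were the least abundant, Tnfrsf8 at 69.4 and 64.98 RPKM in water and Tnfrsf25 at 33.5 and 31.3 RPKM.

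**Figure D1:**
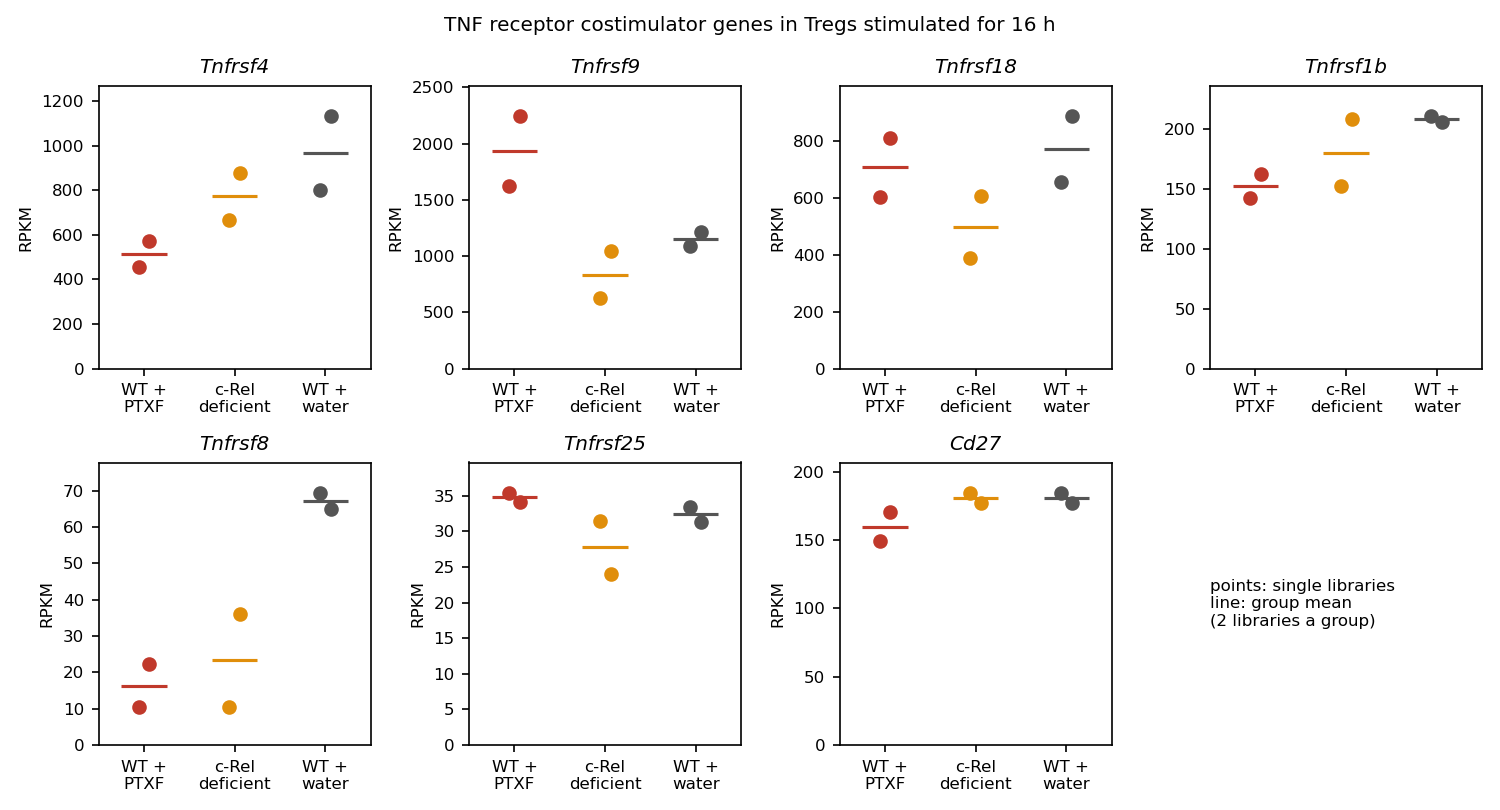
RPKM of the 7 receptor genes (y axis, from 0, a scale of its own in each panel) in Tregs stimulated for 16 hours, with 2 libraries for WT with PTXF, c-Rel-deficient and WT with water. Points are single libraries and lines group means; both PTXF libraries lie below both water libraries for Tnfrsf4 and Tnfrsf8 and above them for Tnfrsf9.

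The first question was how the drug altered the receptor genes of stimulated WT Tregs. Tnfrsf8 and Tnfrsf4 fell, Tnfrsf9 stood higher without passing the test, and Tnfrsf18, Tnfrsf25 and Cd27 moved little. Tnfrsf8, a receptor of activated lymphocytes, was 10.4 and 22.2 RPKM with PTXF, against 69.4 and 64.98 RPKM with water. Neither PTXF library came near either water library, and the log2 difference was -2.10 (SE 0.54, limma, Benjamini-Hochberg adjusted p = 0.0182). Tnfrsf4, which prolongs T cell survival, was 456 and 573 RPKM with PTXF, against 802 and 1132 RPKM with water. Its groups did not overlap either, with a log2 difference of -0.90 (SE 0.26, limma, Benjamini-Hochberg adjusted p = 0.0287). These 2 calls of 7 stand beside 43.5% of all tested genes called, 23.9% lower and 19.6% higher.

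Tnfrsf9 was 1625 and 2244 RPKM with PTXF, against 1090.0 and 1215 RPKM with water, so both PTXF libraries lay above the water libraries and above each other member of the stimulated set. The log2 difference was 0.73 (SE 0.32, limma, Benjamini-Hochberg adjusted p = 0.0988). Tnfrsf1b, the TNF receptor of Tregs that sustains their expansion, stood at 142 and 162 RPKM with PTXF and 211 and 206 RPKM with water, a log2 difference of -0.45 (SE 0.19, limma, Benjamini-Hochberg adjusted p = 0.0839). Tnfrsf18, whose engagement weakens Treg suppression, had 603 and 811 RPKM with PTXF, one below and one between the 657 and 886 RPKM with water. Tnfrsf25, the death-domain member that expands Tregs when engaged, had 35.4 and 34.2 RPKM with PTXF and 33.5 and 31.3 RPKM with water. Cd27, a receptor that supports the survival of primed T cells, had 149 and 170.4 RPKM with PTXF and 185 and 177 RPKM with water. The log2 differences of these 3 genes were -0.12 (SE 0.29), 0.10 (SE 0.16) and -0.18 (SE 0.14). Both PTXF libraries lay below both water libraries for 4 genes and above them for 2, while 38.3% and 37.2% of all genes separated in those directions.

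The neighbours Tnfrsf4 and Tnfrsf18 differed in how far they moved. Their ratio, Tnfrsf4 over Tnfrsf18, was 0.755 and 0.706 with PTXF, 1.72 and 1.45 in c-Rel-deficient cells, and 1.22 and 1.28 with water. No 2 groups overlapped in this ratio. The neighbours Tnfrsf8 and Tnfrsf1b had log2 differences of -2.10 and -0.45 with the drug.

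The authors' deposited table holds its own p-values, which were Benjamini-Hochberg adjusted here, and 3 of the 7 genes pass in it, against 22.7% of all genes. The authors' deposited table gives -2.33 for Tnfrsf8 (adjusted p = 1.63e-18), -0.98 for Tnfrsf4 (adjusted p = 2.08e-04) and 0.55 for Tnfrsf9 (adjusted p = 0.033). The limma calls rest on few libraries. Without PTXF replicate 1 or without water replicate 2 neither call was kept. The adjusted p of Tnfrsf8 was then 0.1004 and 0.0784, and that of Tnfrsf4 0.184 and 0.138. Without water replicate 1 Tnfrsf8 lost its call (adjusted p = 0.0693), and without PTXF replicate 2 Tnfrsf4 did (adjusted p = 0.0600). With no filter on low values both missed the threshold, Tnfrsf8 at 0.0541 and Tnfrsf4 at 0.0892. The resting marker Ccr7 was 623 to 639 RPKM with PTXF, against 285 to 364 RPKM with water. The activation markers Cd44, Itgae and Klrg1 summed to 69.2 to 88.1 RPKM with PTXF and 98.0 to 113 RPKM with water. Cd44 and Itgae were lower with PTXF. Klrg1 was not, at 17.8 to 32.6 RPKM with PTXF and 17.1 to 22.6 RPKM with water. Nkg7, on the list of natural killer and cytotoxic genes, was 1.49 to 3.87 RPKM with PTXF and 31.7 to 50.2 RPKM with water. The other genes of that list with values, Prf1 among them, overlapped between PTXF and water. The part of Ccr7 or of any of these markers in the receptor values was not tested. Relative to water replicate 1 the depth was 0.793 and 0.682 in the PTXF libraries and 0.949 in water replicate 2.

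The second question was what loss of c-Rel did after the same stimulation. All 7 genes had differences below 0, with a median of -0.32, while 3996 of 9945 tested genes lay below 0 and the median of all was 0.06. None passed in limma, where 0 of 9945 genes did and 791 (7.95%) had an unadjusted p under 0.05. Tnfrsf8 was 10.6 and 36.0 RPKM in c-Rel-deficient Tregs, against 69.4 and 64.98 RPKM in WT, a log2 difference of -1.75 (SE 0.54, limma, Benjamini-Hochberg adjusted p = 0.494). Both libraries lay below both WT libraries, and 0.261% of all tested genes had a difference this low. Tnfrsf18 was 388 and 604 RPKM in c-Rel-deficient Tregs and 657 and 886 RPKM in WT, with a difference of -0.65 (SE 0.29). Tnfrsf9 was 628 and 1043 RPKM in c-Rel-deficient Tregs and 1090.0 and 1215 RPKM in WT, with a difference of -0.51 (SE 0.32). These 3 genes were the ones whose libraries did not overlap, against 16.3% of all genes that separated downward. The 6 genes of the Treg list summed to 1548 to 2241 RPKM in c-Rel-deficient Tregs and 2225 to 2332 RPKM in WT. That list includes Cd4 and Cd3e, which other T cells also express. Foxp3 was 107 and 193 RPKM in c-Rel-deficient Tregs and 289.6 and 237 RPKM in WT, and the authors' deposited table gives it -1.11 (adjusted p = 5.43e-05). Ikzf2, which encodes Helios, was 49.3 and 96.2 RPKM in c-Rel-deficient Tregs and 117 and 101 RPKM in WT, and Il2ra 449.6 and 812 RPKM against 849.9 and 842 RPKM. The first c-Rel-deficient value is in each case that of the library with Rel at 2.44 RPKM. Igj, on the plasma cell list, was 0.0255 to 0.309 RPKM in c-Rel-deficient Tregs and 10.3 to 15.6 RPKM in WT. Sdc1 of that list was also lower, at 0.147 to 0.491 RPKM against 0.718 to 0.961 RPKM, while Xbp1 and Prdm1 overlapped. The part of these markers in the receptor values was not tested.

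Tnfrsf4 was 668 and 878 RPKM in c-Rel-deficient Tregs and Tnfrsf1b 152 and 208 RPKM, each overlapping its WT values given above. Tnfrsf25 was 31.4 and 24.1 RPKM in c-Rel-deficient Tregs, also overlapping WT. Cd27 was 184 and 177 RPKM in c-Rel-deficient Tregs, nearly the WT values of 185 and 177 RPKM, with a difference of -0.0021 (SE 0.14). The c-Rel-deficient library with Rel at 2.44 RPKM had the lower value of the pair for Tnfrsf4, Tnfrsf9, Tnfrsf18, Tnfrsf1b and Tnfrsf8, and the higher one for Tnfrsf25 and Cd27. When the library with Rel at 24.96 RPKM was left out, 284 genes were called and Tnfrsf8 was among them (-2.61, limma, Benjamini-Hochberg adjusted p = 0.0188). Without the other library, with Rel at 2.44 RPKM, it differed by -0.89 and was not called. Each of these fits leaves the arm with 1 library, which is assumed to vary like the libraries of the other groups, as in all fits here that leave out 1 of a pair. The authors' deposited table calls 3 of the 7 genes lower, against 1.66% of all genes lower and 2.14% in either direction. The authors' deposited table gives -2.14 for Tnfrsf8 (adjusted p = 4.04e-14), -0.84 for Tnfrsf18 (adjusted p = 0.0149) and -0.73 for Tnfrsf9 (adjusted p = 0.0204).

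Drug and deletion were also set against each other. Tnfrsf9 alone of the 7 was called, 2.36-fold higher with PTXF than in c-Rel-deficient Tregs on the fitted scale (log2 difference 1.24, SE 0.32, limma, Benjamini-Hochberg adjusted p = 0.0158), while 48.4% of all genes were called, 21.6% higher. The call was lost without PTXF replicate 2 (adjusted p = 0.0973), without c-Rel-deficient replicate 1 (adjusted p = 0.0902) and with no filter (adjusted p = 0.0781). Tnfrsf4 differed by -0.58 (SE 0.26) and Tnfrsf8 by -0.35 (SE 0.54), neither past the threshold. The Tnfrsf8 value depended on single libraries, at -1.21 without c-Rel-deficient replicate 1 (called lower, limma, Benjamini-Hochberg adjusted p = 0.0441) and 0.51 without c-Rel-deficient replicate 2. Both comparisons with water share the water libraries, so their differences are given side by side and were not correlated.

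The sorted set, taken with no culture, was ranked within itself. In the 13 sorted libraries Tnfrsf4, Tnfrsf18 and Cd27 held the first 3 places, Tnfrsf9 held place 4 or 5, and Tnfrsf8 was last throughout. In WT aTregs Tnfrsf4 was 578, 429 and 381 RPKM, Tnfrsf18 338, 348 and 334 RPKM, and Cd27 251, 239 and 228 RPKM. The sets were normalized separately, so levels of the sorted and the stimulated cells were not tested against each other.

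**Figure D2:**
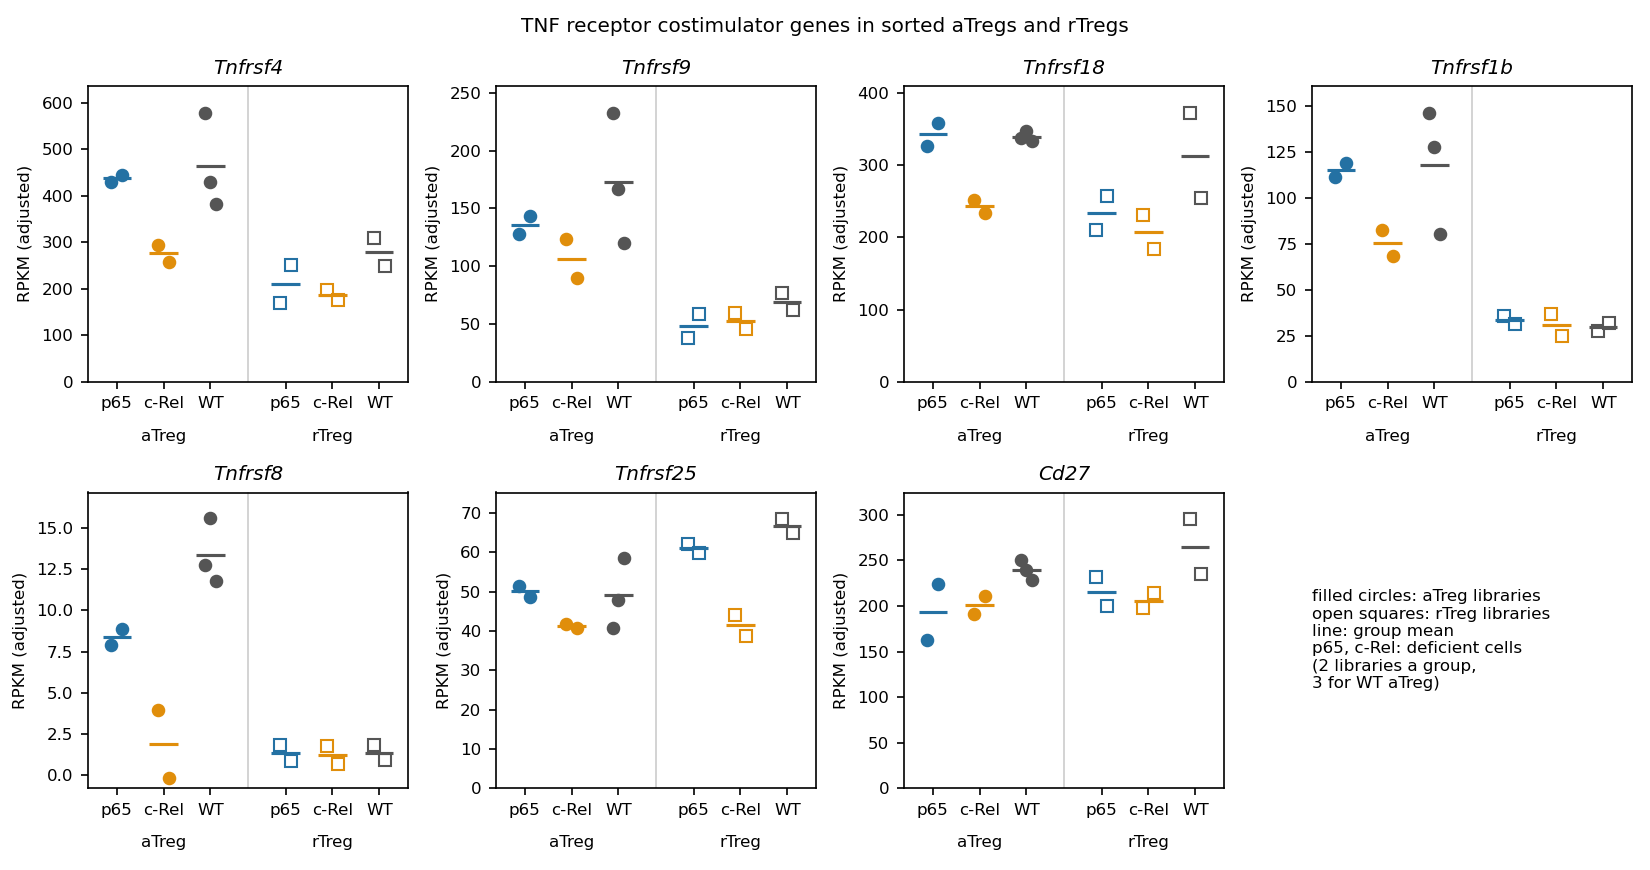
Adjusted RPKM of the 7 receptor genes (y axis, a scale of its own in each panel) in sorted Tregs, aTregs left and rTregs right, each as p65-deficient, c-Rel-deficient and WT. Points are single libraries (3 for WT aTregs, 2 for the rest) and lines group means; aTreg libraries lie above all rTreg libraries for Tnfrsf1b and Tnfrsf9, and the c-Rel-deficient aTregs hold the lowest aTreg values of Tnfrsf8.

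The sorted subsets were compared first within WT. In aTregs 3 of the 7 receptors rose, Tnfrsf1b, Tnfrsf9 and Tnfrsf8, while Tnfrsf18 and Cd27 were nearly level. Tnfrsf1b was 146, 127 and 80.3 RPKM in aTregs, against 27.4 and 31.7 RPKM in rTregs. Even the lowest aTreg library held more than the highest rTreg library, and the log2 difference was 1.94 (SE 0.24, limma, Benjamini-Hochberg adjusted p = 0.00526). Tnfrsf9 was 233, 167 and 119.7 RPKM in aTregs, against 76.3 and 61.8 RPKM in rTregs, a log2 difference of 1.28 (SE 0.28, limma, Benjamini-Hochberg adjusted p = 0.0251). Tnfrsf8 was 12.7, 15.6 and 11.8 RPKM in aTregs, against 1.81 and 0.913 RPKM in rTregs. Its log2 difference was 2.93 (SE 0.70, limma, Benjamini-Hochberg adjusted p = 0.0309). These 3 calls of 7 stand beside 12.2% of all tested genes called, 7.54% of them higher.

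Tnfrsf4 was 578, 429 and 381 RPKM in aTregs, all above the 308 and 249 RPKM in rTregs, with a log2 difference of 0.72 that just missed the threshold (SE 0.21, limma, Benjamini-Hochberg adjusted p = 0.0531). Tnfrsf25 lay the other way, at 40.8, 47.8 and 58.7 RPKM in aTregs and 68.4 and 65.1 RPKM in rTregs, a log2 difference of -0.45 (SE 0.14, limma, Benjamini-Hochberg adjusted p = 0.057). Tnfrsf18 was 338, 348 and 334 RPKM in aTregs, between the 373 and 254 RPKM of rTregs, and Cd27 also overlapped, with 295 and 235 RPKM in rTregs. Over the 7 genes 4 had all aTreg libraries above all rTreg libraries and 1 below, where 19.0% and 21.9% of all genes separated so. The median of the 7 differences was 0.72, against -0.06 over all tested genes.

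The same 3 receptors were not called in each genotype. Among p65-deficient cells Tnfrsf1b, Tnfrsf9 and Tnfrsf4 rose in aTregs, 3 of 7 beside 3.17% of all genes called, 2.79% higher. Tnfrsf1b was 111 and 119 RPKM in p65-deficient aTregs and 35.5 and 31.4 RPKM in p65-deficient rTregs (log2 difference 1.77, SE 0.26, limma, Benjamini-Hochberg adjusted p = 0.00979). Tnfrsf9 was 128 and 143 RPKM in p65-deficient aTregs and 37.9 and 58.8 RPKM in p65-deficient rTregs (log2 difference 1.51, SE 0.31, limma, Benjamini-Hochberg adjusted p = 0.0293). Tnfrsf4 was 429.6 and 445 RPKM in p65-deficient aTregs and 169.5 and 251 RPKM in p65-deficient rTregs (log2 difference 1.08, SE 0.23, limma, Benjamini-Hochberg adjusted p = 0.0365). Tnfrsf8 was 7.92 and 8.86 RPKM in p65-deficient aTregs and 1.81 and 0.884 RPKM in p65-deficient rTregs, with a log2 difference of 2.31 (SE 0.77, limma, Benjamini-Hochberg adjusted p = 0.122). It was called without c-Rel-deficient aTreg replicate 2 or 3, which share the fit (adjusted p = 0.0129 and 0.0128). Without overlap 5 of the 7 genes lay higher in p65-deficient aTregs and Tnfrsf25 lower, where 27.2% and 37.0% of all genes did.

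Among c-Rel-deficient cells 0 of 10656 genes were called by limma between the subsets, with 1494 (14.0%) at an unadjusted p under 0.05. Tnfrsf1b was 82.4 and 68.4 RPKM in c-Rel-deficient aTregs and 36.6 and 25.02 RPKM in c-Rel-deficient rTregs, a log2 difference of 1.30 (SE 0.26, limma, Benjamini-Hochberg adjusted p = 0.173). Tnfrsf9 was 123.4 and 89.6 RPKM in c-Rel-deficient aTregs and 59.1 and 45.5 RPKM in c-Rel-deficient rTregs, a log2 difference of 1.01 (SE 0.31). Tnfrsf4 and Tnfrsf18 had differences of 0.57 (SE 0.23) and 0.24 (SE 0.20), also with no overlap. These 4 genes lay higher in both aTreg libraries, where 21.9% of all genes did. Tnfrsf8 was 3.95 and -0.165 RPKM in c-Rel-deficient aTregs, the second value set to 0 for the fit, and 1.76 and 0.708 RPKM in c-Rel-deficient rTregs, so the groups overlapped. When WT aTreg replicate 3, which is in neither group but shares the fit, was left out, 179 genes were called, and Tnfrsf1b was one of them (1.30, limma, Benjamini-Hochberg adjusted p = 0.0182).

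The authors' deposited table, which holds the subset comparison for WT, calls the same 3 genes higher, against 7.98% of all genes higher and 11.2% in either direction. The authors' deposited table gives 5.67 for Tnfrsf8 (adjusted p = 1.73e-46), 2.69 for Tnfrsf1b (adjusted p = 8.74e-14) and 1.56 for Tnfrsf9 (adjusted p = 0.00952). In rTregs Tnfrsf8 went with the replicate number and not with genotype, at 1.81, 1.76 and 1.81 RPKM in the 3 libraries numbered 1 and 0.884, 0.708 and 0.913 RPKM in the 3 numbered 2, each triple as p65-deficient, c-Rel-deficient and WT. At that low level the measured RNA and the authors' adjustment cannot be told apart, which limits each Tnfrsf8 difference against rTregs.

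The limma calls between subsets moved with single libraries. In WT between 83 genes (without aTreg replicate 1) and 2963 genes (without rTreg replicate 2) were called, against 1302 with each library in. In WT the Tnfrsf9 call was lost without rTreg replicate 1 (adjusted p = 0.0721), aTreg replicate 1 (0.0908) or aTreg replicate 2 (0.0785). The Tnfrsf8 call was lost without either rTreg library (adjusted p = 0.0844 and 0.0646), aTreg replicate 1 (0.102) or aTreg replicate 2 (0.0882). Tnfrsf1b kept its call in each of the 13 fits that left out 1 library, with an adjusted p of at most 0.0395. Among p65-deficient cells all 3 calls were lost when any 1 of the 4 libraries was left out, and Tnfrsf4 lost its call also without WT aTreg replicate 2 (adjusted p = 0.0531). Processing settings moved calls both ways. With median-of-ratios scaling Tnfrsf4 in WT was called higher in aTregs (limma, Benjamini-Hochberg adjusted p = 0.0446). Tnfrsf8 in p65-deficient cells was called higher with only the groups compared in the fit (limma, Benjamini-Hochberg adjusted p = 0.0106). That fit called 1451 genes. Such settings also ended 3 of the main calls. With only the groups compared in the fit Tnfrsf9 in WT had an adjusted p of 0.0795, with a pseudocount of 0.1 Tnfrsf8 in WT had 0.0840, and with no filter on low values Tnfrsf4 in p65-deficient cells had 0.0521.

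WT aTreg libraries differed among themselves in markers of the resting and activated subsets. Ccr7, the chemokine receptor that guides resting cells into lymph nodes, was 62.9, 104 and 202 RPKM in WT aTreg replicates 1, 2 and 3. Tnfrsf1b, Tnfrsf9 and Tnfrsf4 were highest in the replicate with the least Ccr7 and lowest in the one with the most, and Tnfrsf25 was the reverse. Ccr7 was 132 and 177 RPKM in p65-deficient aTregs and 155 and 303 RPKM in c-Rel-deficient aTregs, against 274 to 459 RPKM in rTregs, so 1 c-Rel-deficient aTreg library lay within the rTreg range. The activation markers Cd44, Itgae and Klrg1 summed to 237, 216 and 125 RPKM in the 3 WT aTreg libraries, 212 and 210.3 RPKM in p65-deficient and 151 and 119 RPKM in c-Rel-deficient aTregs. They did not move alike. Klrg1, a receptor of terminally differentiated T cells, was 23.8 and 8.10 RPKM in c-Rel-deficient aTregs, below the 72.0 and 81.4 RPKM of p65-deficient and the 82.2, 82.3 and 62.0 RPKM of WT aTregs. Cd44, by which the cells were sorted, was 61.2 and 32.9 RPKM in c-Rel-deficient aTregs and 49.4, 45.2 and 26.4 RPKM in WT aTregs, with no lower mean (47.1 RPKM against 40.3 RPKM). When WT aTreg replicate 3 was left out, 5 of the 7 genes were called between WT subsets, as were 2392 genes of the table against 1302 with it in. Tnfrsf4 was then 0.84 higher (adjusted p = 0.0252) and Tnfrsf25 differed by -0.59 (limma, Benjamini-Hochberg adjusted p = 0.00945). The part of these markers in the receptor differences was not tested.

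**Figure D3:**
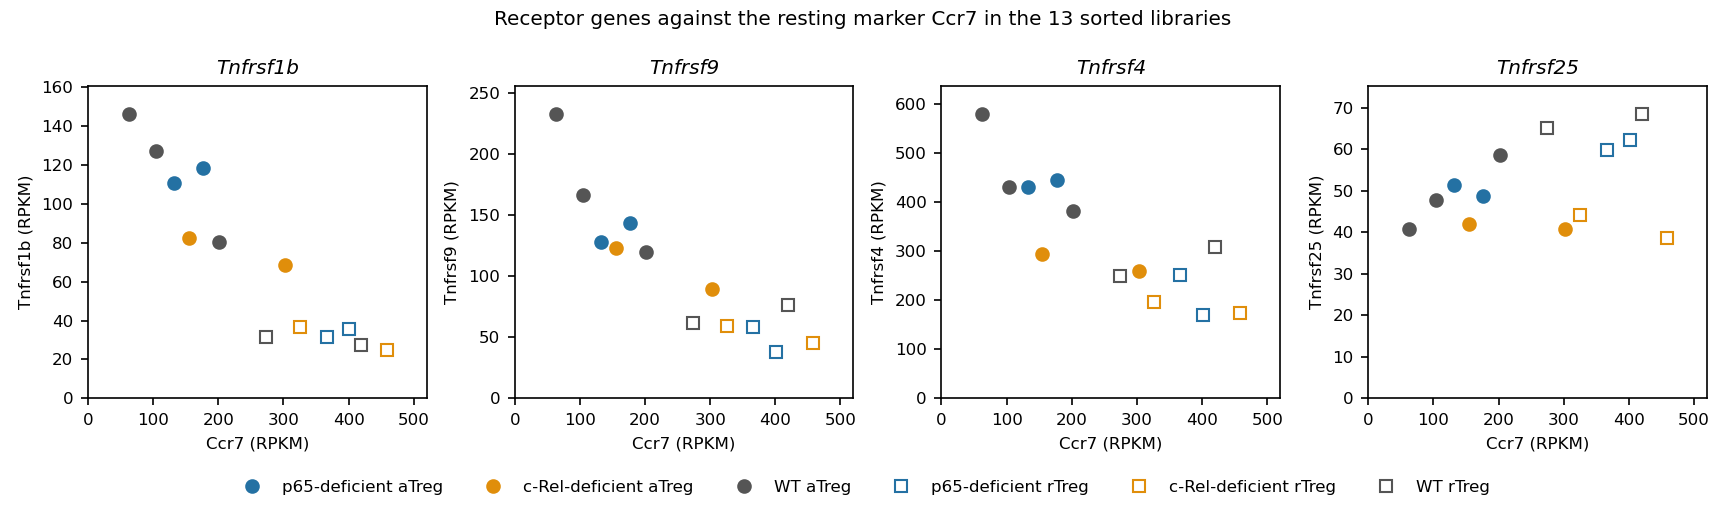
RPKM of Tnfrsf1b, Tnfrsf9, Tnfrsf4 and Tnfrsf25 (y axes, from 0) against the RPKM of Ccr7 (x axis) in the 13 sorted libraries, filled circles for aTregs and open squares for rTregs. Among WT aTregs the library at 62.9 RPKM of Ccr7 has the highest Tnfrsf1b and the one at 202 RPKM the lowest, while both c-Rel-deficient aTreg libraries lie below the other aTregs for Tnfrsf4.

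The next question was what loss of c-Rel did in unstimulated Tregs. In aTregs all 7 genes had differences below 0, median -0.60, while 5003 of 10656 tested genes lay below 0 and the median of all was 0.01. By limma 0 genes were called in the whole table, with 717 (6.73%) at an unadjusted p under 0.05. Tnfrsf8 was 3.95 and -0.165 RPKM in c-Rel-deficient aTregs, against 12.7, 15.6 and 11.8 RPKM in WT aTregs. This is a log2 difference of -3.21 with an SE of 0.70 (limma, Benjamini-Hochberg adjusted p = 0.231). Over all tested genes 0.0188% had one this low. Tnfrsf4 was 295 and 258 RPKM in c-Rel-deficient aTregs, below the 578, 429 and 381 RPKM of WT, with a difference of -0.72 (SE 0.21). Tnfrsf18 was 252 and 235 RPKM in c-Rel-deficient aTregs, below the 338, 348 and 334 RPKM of WT, with a difference of -0.48 (SE 0.18).

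Cd27 was 191 and 211 RPKM in c-Rel-deficient aTregs, below its WT values, with a difference of -0.25 (SE 0.16). These 4 genes had no overlap between genotypes, against 13.8% of all genes that separated downward. Tnfrsf9 and Tnfrsf1b overlapped through WT aTreg replicate 3, with differences of -0.66 (SE 0.28) and -0.60 (SE 0.24). Tnfrsf25 was 41.9 and 40.8 RPKM in c-Rel-deficient aTregs and overlapped WT. The authors' deposited table calls Tnfrsf8 alone of the 7 (-2.03, adjusted p = 5.74e-08), where it calls 0.52% of all genes, 0.121% lower. When c-Rel-deficient aTreg replicate 2 was left out, limma called 13 genes, Tnfrsf8 among them (-4.78, Benjamini-Hochberg adjusted p = 0.0035). That fit rests on the library at -0.165 RPKM as the whole arm. Without replicate 3, which is that library, the difference was -1.63 and limma called 0 genes. Some markers of other cells were also unlike between these groups. Klrb1c, the gene of the natural killer (NK) antigen NK1.1, was 25.05 and 3.60 RPKM in c-Rel-deficient aTreg replicates 2 and 3, and 2.88, 0 and 1.72 RPKM in WT aTregs. Klrd1, which encodes CD94, was 19.9 and 5.91 RPKM in c-Rel-deficient aTregs and 3.20, 0 and 4.04 RPKM in WT aTregs. The 6 NK and cytotoxic genes summed to 85.8 to 192 RPKM in c-Rel-deficient aTregs and 60.2 to 119 RPKM in WT aTregs, with Ncr1 under 0.5 RPKM in each. Nkg7 gave most of that sum, at 67.5 to 141 RPKM in c-Rel-deficient and 47.1 to 111 RPKM in WT aTregs. In p65-deficient aTregs Nkg7 was 97.7 to 118 RPKM. Gzma lay the other way, at 0.363 to 0.439 RPKM in c-Rel-deficient and 0.694 to 0.987 RPKM in WT aTregs. The 8 myeloid genes summed to 7.27 to 15.2 RPKM in c-Rel-deficient and 3.99 to 7.31 RPKM in WT aTregs. The part of such cells in the receptor differences was not tested.

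In rTregs lacking c-Rel 5 of the 7 genes lay below both WT libraries, against 14.2% of all genes, and again limma called 0 genes (775, or 7.27%, at an unadjusted p under 0.05). Tnfrsf25 was 44.1 and 38.7 RPKM in c-Rel-deficient rTregs, against 68.4 and 65.1 RPKM in WT rTregs. Its log2 difference of -0.68 (SE 0.15) had an adjusted p of 0.627 in limma with Benjamini-Hochberg adjustment, and -0.66 stands in the authors' deposited table (adjusted p = 1), which calls 0.0270% of all genes there. Tnfrsf4 was 197 and 174.5 RPKM in c-Rel-deficient rTregs and 308 and 249 RPKM in WT rTregs, with a difference of -0.58 (SE 0.23). Tnfrsf18 was 231 and 184 RPKM in c-Rel-deficient rTregs and 373 and 254 RPKM in WT rTregs, with a difference of -0.58 (SE 0.20). Tnfrsf9 and Cd27 differed by -0.40 (SE 0.31) and -0.36 (SE 0.18), and Tnfrsf1b by 0.04 (SE 0.26) with overlapping libraries. The c-Rel-deficient rTreg replicate 2 stood apart from replicate 1 in Treg markers. Foxp3 was 73.6 RPKM in replicate 1 and 28.1 RPKM in replicate 2, against 71.9 and 97.5 RPKM in WT rTregs. Ikzf2 was 43.2 and 4.35 RPKM in the same c-Rel-deficient libraries and 41.2 and 47.0 RPKM in WT rTregs, and Il2ra 178 and 65.5 RPKM against 122 and 180.4 RPKM. The 6 genes of the Treg list summed to 905 to 1258 RPKM in c-Rel-deficient and 831 to 992 RPKM in WT rTregs. That list includes Cd4 and Cd3e, which other T cells also express. Cd4 and Cd3e averaged 276 and 450 RPKM in c-Rel-deficient and 213 and 253 RPKM in WT rTregs. Foxp3, Ikzf2, Il2ra and Ctla4 had lower means in c-Rel-deficient than in WT rTregs. The part of these genes in the receptor values was not tested. Without replicate 2 Tnfrsf25 differed by -0.59, Tnfrsf4 by -0.49, Tnfrsf18 by -0.41, Tnfrsf9 by -0.22 and Cd27 by -0.42, and limma again called 0 genes.

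Loss of p65 was compared in the same way. No gene of the table was called by limma in aTregs or rTregs, with 365 (3.43%) and 726 (6.81%) at an unadjusted p under 0.05. In aTregs the receptors differed by between -0.63 for Tnfrsf8 (SE 0.70) and 0.04 for Tnfrsf25 (SE 0.14). Tnfrsf8 was 7.92 and 8.86 RPKM in p65-deficient aTregs, below each WT aTreg library, and Cd27 was 163 and 225 RPKM, also below each. These were 2 of 7 genes without overlap, against 11.7% of all genes downward. In rTregs the differences ran from -0.54 for Tnfrsf9 (SE 0.31) to 0.18 for Tnfrsf1b (SE 0.26). Tnfrsf9, Tnfrsf25 and Cd27 lay below both WT rTreg libraries, 3 of 7 against 17.2% of all genes. The authors' deposited table calls no receptor of the 7 in either subset, with 0.196% of all genes called in aTregs and 0.0337% in rTregs.

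The deletions were then set against each other, where limma called 0 genes in aTregs (634, or 5.95%, at an unadjusted p under 0.05) and 0 in rTregs (215, or 2.02%). In aTregs 6 of the 7 genes were higher in both p65-deficient libraries than in both c-Rel-deficient ones, all but Cd27, where 17.0% of all genes separated upward. Tnfrsf8 differed by 2.57 (SE 0.77) and Tnfrsf4 by 0.66 (SE 0.23), with adjusted p of 0.556 and 0.64 in limma with Benjamini-Hochberg adjustment. In rTregs Tnfrsf25 was the one gene that separated, by 0.56 (SE 0.15), against 13.5% of all genes. Without c-Rel-deficient aTreg replicate 2 Tnfrsf8 differed by 4.15 between the deletions in aTregs (limma, Benjamini-Hochberg adjusted p = 0.0201), and without replicate 3 by 0.99, not called. Whether a deletion acted differently in aTregs and rTregs was tested as an interaction in limma, which called 0 of 10656 genes for either subunit, with 497 (4.66%) for c-Rel and 237 (2.22%) for p65 at an unadjusted p under 0.05. For c-Rel the interaction of Tnfrsf8 was -3.08 (SE 1.04, adjusted p = 0.898), that of Tnfrsf1b -0.64 (SE 0.35) and that of Tnfrsf25 0.46 (SE 0.21). For p65 the values ran from -0.62 for Tnfrsf8 (SE 1.04) to 0.42 for Tnfrsf18 (SE 0.26). Without c-Rel-deficient aTreg replicate 2 the c-Rel interaction of Tnfrsf8 was -4.65 (limma, Benjamini-Hochberg adjusted p = 0.0495), and without replicate 3 it was -1.50, not called.

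**Figure D4:**
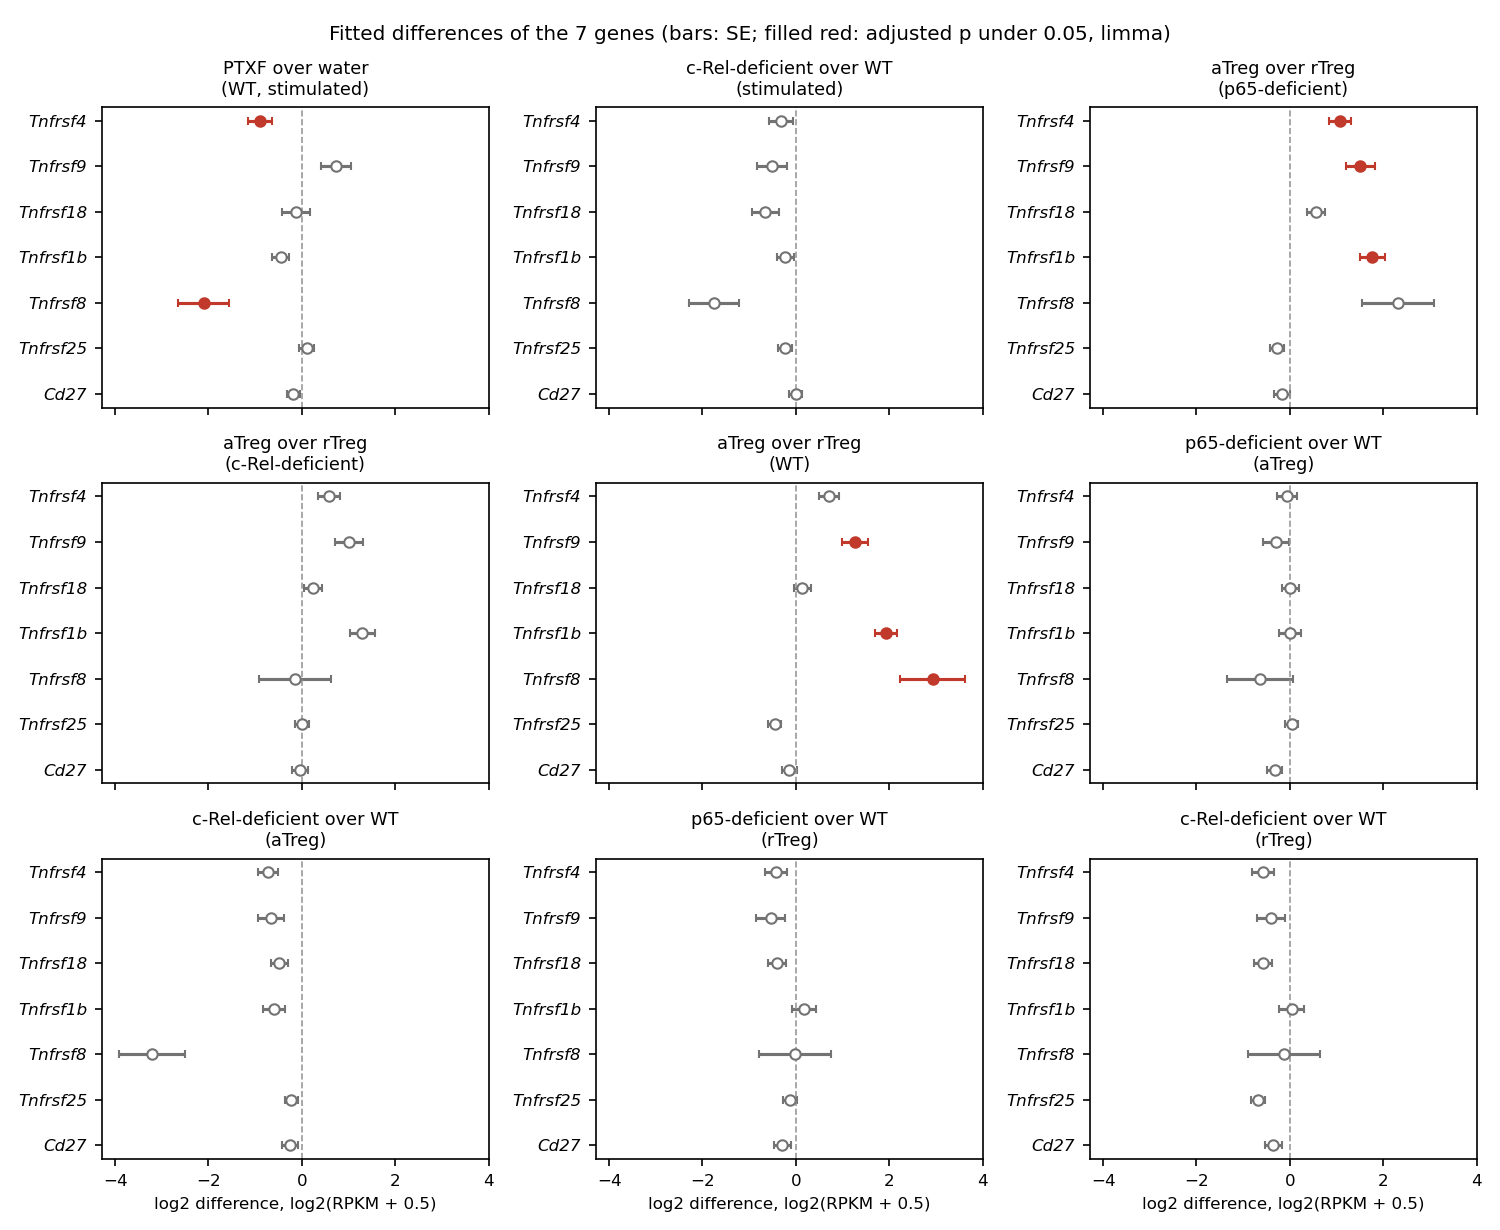
Fitted log2 differences of the 7 receptor genes (x axis, on the log2(RPKM + 0.5) scale, first-named group over second) in 9 comparisons, with bars of 1 SE. Filled red points passed limma with a Benjamini-Hochberg adjusted p under 0.05: 2 for PTXF over water, 3 each for aTregs over rTregs in p65-deficient and WT cells, and none where c-Rel-deficient or p65-deficient cells are set over WT.

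Ordered by mean level over the 6 sorted groups, Tnfrsf1b and Tnfrsf9 ran from WT aTregs through p65-deficient to c-Rel-deficient aTregs and then to the rTregs. Their WT and p65-deficient aTreg libraries overlapped, while p65-deficient and c-Rel-deficient aTregs, and c-Rel-deficient aTregs and the next rTreg group, did not. The 3 rTreg groups of Tnfrsf1b overlapped. Tnfrsf8 separated at the first 2 steps, WT over p65-deficient over c-Rel-deficient aTregs, and not below. Tnfrsf4 placed c-Rel-deficient aTregs (mean 277 RPKM) beside WT rTregs (mean 279 RPKM), and these overlapped. Tnfrsf18 had the same neighbours but in that step did not overlap. Tnfrsf25 ran from WT rTregs (mean 66.8 RPKM) and p65-deficient rTregs (mean 61.1 RPKM), which did not overlap, to both c-Rel-deficient groups (41.4 RPKM each). Cd27 had no neighbouring groups that separated. The ratio of Tnfrsf4 to Tnfrsf18 was 1.101 to 1.71 in the 7 aTreg libraries and 0.809 to 0.981 in the 6 rTreg libraries.

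For each receptor the 2 genes with the most similar log2 values over the 13 sorted libraries, out of 7885 candidates, were named by Pearson correlation as a description. Depth, adjustment and the aTreg and rTreg split are shared by all of these points. Tnfrsf1b went with Cd38, an NAD-consuming ectoenzyme (0.991), and Ahr, the aryl hydrocarbon receptor (0.988). Tnfrsf9 went with Maged2 (0.982) and Zcchc18 (0.975). Tnfrsf4 went with Batf, an AP-1 factor of effector T cells (0.957), and Tspan3 (0.954). Batf averaged 139 RPKM in WT aTregs, 76.3 RPKM in c-Rel-deficient aTregs and 68.3 RPKM in WT rTregs. Tnfrsf8 went with Pctp (0.954) and Nrn1, neuritin (0.952), Tnfrsf25 with Krtcap3 (0.939) and Phkg2 (0.904), Tnfrsf18 with Arl4a (0.915) and Hopx (0.910), and Cd27 with Appbp2 (0.887) and Toe1 (0.871).

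The wider family was followed through 3 lists, of which 11 other receptors, 7 ligands and 28 signalling genes were tested in the stimulated set. With PTXF 2 of 7 ligands fell and 1 rose, beside 23.9% of all tested genes that fell and 19.6% that rose. Tnf, the ligand of Tnfrsf1b, was 3.41 and 7.52 RPKM with PTXF, against 44.9 and 56.1 RPKM with water (log2 difference -3.18, SE 0.35, limma, Benjamini-Hochberg adjusted p = 9.31e-04). Lta, lymphotoxin alpha, was 27.2 and 42.8 RPKM with PTXF and 87.6 and 103.5 RPKM with water (-1.46, SE 0.23). Tnfsf8, the ligand of Tnfrsf8, went the other way from its receptor, at 167 and 176 RPKM with PTXF and 73.5 and 70.7 RPKM with water (1.24, SE 0.29, limma, Benjamini-Hochberg adjusted p = 0.0132). Tnfsf8 was 161 and 79.6 RPKM in the 2 c-Rel-deficient libraries.

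Of the 11 other receptors 3 rose and 2 fell with PTXF, the rises being Tnfrsf23, a decoy receptor known from the mouse (1.98, SE 0.21), Tnfrsf26 (1.15, SE 0.22) and Tnfrsf1a, the death-domain TNF receptor (0.64, SE 0.20). Of the 28 signalling genes 5 rose and 2 fell, against the same 19.6% and 23.9%. Tnfaip3, the gene of A20, a brake on NF-kB, was 628 and 439 RPKM with PTXF and 85.1 and 80.4 RPKM with water (2.66, SE 0.19, limma, Benjamini-Hochberg adjusted p = 5.23e-04). Tab2, an adaptor of the TAK1 kinase, differed by 0.92 (SE 0.13) and Birc2, which encodes the ubiquitin ligase cIAP1, by 0.87 (SE 0.16). The medians of the 3 lists were 0.27, -0.51 and 0.03, against 0.00 over all genes. The authors' deposited table calls 16 of the 55 listed genes of the 3 lists, 10 higher and 6 lower, beside 22.7% of all genes.

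In c-Rel-deficient stimulated Tregs limma called no member of these lists, as it called no gene at all, and their medians were 0.13 for receptors, 0.26 for ligands and 0.04 for signalling genes, where the 7 costimulators had -0.32. The authors' deposited table calls 6 of their 55 listed genes there, against 2.14% of all genes. Lower in the authors' deposited table are Rel itself (-3.38, adjusted p = 2.90e-45), Cd40 (-2.28, adjusted p = 0.0249) and Bcl2l1 (-0.97, adjusted p = 0.00295). Higher in the authors' deposited table are the ligands Tnfsf8 (0.96, adjusted p = 7.51e-04) and Tnf (0.94, adjusted p = 0.00949) and the NF-kB subunit gene Relb (0.79, adjusted p = 0.0227).

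Between WT aTregs and rTregs limma called 2 of 11 other receptors lower and 0 higher, beside 4.68% and 7.54% of all tested genes. These were Relt, at 10.2, 14.1 and 19.0 RPKM in aTregs and 27.5 and 27.9 RPKM in rTregs (-0.96, SE 0.21), and the death receptor Fas, at 26.8, 32.4 and 35.2 RPKM in aTregs and 51.8 and 44.1 RPKM in rTregs (-0.60, SE 0.14). Bcl2l1, the survival gene encoding Bcl-xL, was the 1 of 30 signalling genes that rose (0.88, SE 0.25, limma, Benjamini-Hochberg adjusted p = 0.0481), and 0 of 6 ligands were called. The other receptors had a median of 0.05 there, against 0.72 for the 7 costimulators. The authors' deposited table calls 7 of the 55 listed genes of the lists between WT subsets, beside 11.2% of all genes. Cd40, Tnfsf15, Cd70, Nfkb2, Nfkbie and Bcl2l1 are higher there and Traf4 is lower. In the 4 comparisons of a deletion with WT in sorted cells limma called no member of the 3 lists, and no gene at all. The authors' deposited table calls Rel lower without c-Rel in rTregs (-2.48, adjusted p = 4.74e-06) and aTregs (-2.73, adjusted p = 1.52e-09). Relb is lower without p65 in aTregs in the authors' deposited table (-1.12, adjusted p = 0.0149), which calls no other gene of the lists in these comparisons.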

How the data were processed

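RNA was read in 19 libraries of 9 groups. Reads were aligned with STAR to mm10 and compared in DESeq2 1.10.1, per the submitters' processing notes, and the series design gives 30000000 reads a sample. The authors deposited 1 table a set with RPKM per library, and with log2 fold changes and p-values of their comparisons, per the file headers. The deposited sorted values act as a score, since an adjustment the headers do not describe left 2.53% of them below 0, and 15883 values are tied between libraries of the same replicate number and 0 between others. Sorted depth is thus unknown. Here decimal commas were read as points, values below 0 set to 0, 0.5 added and log2 taken. Genes with 1 RPKM or more in 2 libraries (9945 stimulated, 10656 sorted) were fitted with all groups of a set in limma 3.58.1 (R 4.3.3, trend, two-sided), which was tested on simulated data, and Benjamini-Hochberg adjusted over all of them. The deposited p-values were adjusted over 14290 and 14818 genes. Tables and figures used Python 3.11.15, pandas 2.3.3, numpy 2.4.6, scipy 1.17.1 and matplotlib 3.10.9. Named genes were the 7 receptors, Rel, Rela and Foxp3, up to 3 called genes of each list with a mean of at least 5 RPKM, and 2 most similar genes a receptor. Xist, Ddx3y, the markers, Camta1, Vamp1 and Gm16008 were added after values were seen, as were Tnfsf8 in c-Rel-deficient cells and list genes called in the authors' deposited table. Members, lists and tests were chosen with earlier results of these data known. Deviations of same-numbered libraries from their group means correlated at -0.07 to 0.40 in the stimulated set and -0.49 to 0.44 in the sorted set. In the stimulated set PTXF and water gave the 0.40, so a pairing of these groups is left undecided. The sorted values cannot decide it either, since the authors' adjustment acts on replicate numbers. The labels state no pairing, and the main fits left replicate number out.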

Additional observations from a re-analysis of the deposited data

How the results depend on the processing

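Of 713 member differences refitted without 1 library, 655 kept their direction and side of the threshold, 28 lost a call, 10 gained one and 20 turned sign. Of 495 under other settings, these numbers were 472, 6, 12 and 5. In many of the 713 refits the library left out was in neither compared group. There the difference itself could not change, only its adjusted p, so the 655 include refits that could not turn sign. Counts of called genes moved more. Without 1 library, PTXF over water called 2232 to 4282 genes and 0 to 2 of the 7 receptors, c-Rel-deficient over WT stimulated cells 0 to 284 genes and 0 to 1 receptors, and PTXF over c-Rel-deficient cells 3027 to 4580 genes and 0 to 1 receptors. For aTregs over rTregs the ranges were 83 to 2963 genes and 1 to 5 receptors in WT, 0 to 806 genes and 0 to 4 receptors in p65-deficient, and 0 to 179 genes and 0 to 1 receptors in c-Rel-deficient cells. In aTregs p65-deficient over WT called 0 to 2 genes, c-Rel-deficient over WT 0 to 13 genes and 0 to 1 receptors, and p65-deficient over c-Rel-deficient 0 to 2 genes and 0 to 1 receptors, as did the c-Rel interaction. With no filter on low values 0 receptors were called for PTXF over water and 0 for PTXF over c-Rel-deficient cells. With the filter 43.5% and 48.4% of all tested genes were called in these 2 comparisons. The gene counts with no filter were 3 for c-Rel-deficient over WT stimulated cells, 1 for p65-deficient and 40 for c-Rel-deficient over WT aTregs, and 5 between the deletions in aTregs. With only the groups compared in the fit the gene counts were 4 for c-Rel-deficient over WT stimulated cells, and for aTregs over rTregs 200 in WT and 1451 in p65-deficient cells. Without both libraries numbered 3, aTregs over rTregs called 2203 genes and 5 receptors in WT, 854 genes in p65-deficient, and 228 genes and 1 receptor in c-Rel-deficient cells.

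The labels do not say that replicate numbers pair libraries, and each stimulated group holds 2. Deviations of same-numbered PTXF and water libraries correlated at 0.40 and both libraries numbered 2 held Xist. Other same-numbered libraries went down to -0.07 in that set and -0.49 in the sorted set. The sorted correlations cannot decide on pairing, since the authors' adjustment acts on replicate numbers. With replicate number as a block, Tnfrsf9 was called higher for PTXF over water (limma, Benjamini-Hochberg adjusted p = 0.0498). PTXF over c-Rel-deficient cells then called 2 receptors, Tnfrsf4 (adjusted p = 0.0441, limma with Benjamini-Hochberg adjustment) beside Tnfrsf9. Without the block 43.5% and 48.4% of all tested genes were called in these 2 comparisons. Under the replicate block aTregs over rTregs called 2077 genes and 5 receptors in WT, 731 genes in p65-deficient, and 901 genes and 2 receptors in c-Rel-deficient cells. The other blocked gene counts were 1 for c-Rel-deficient over WT stimulated cells, 1 for p65-deficient and 44 for c-Rel-deficient over WT aTregs, 46 between the deletions in aTregs and 3 for the c-Rel interaction.

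Signs turned where differences were small. In c-Rel-deficient aTregs over rTregs Cd27 was 0.028 with median-of-ratios scaling, Tnfrsf25 was -0.10 under the replicate block, and Tnfrsf8 was 0.036 with a pseudocount of 1, 0.68 under the replicate block and 1.43 without both libraries numbered 3. Leaving out single libraries, the same comparison ran from -0.11 to 0.035 for Cd27, -0.091 to 0.094 for Tnfrsf25 and -1.72 to 1.43 for Tnfrsf8. The other log2 differences that turned sign ran from -0.34 to 0.091 for Tnfrsf18 in PTXF over water, -0.032 to 0.028 for Cd27 in c-Rel-deficient over WT stimulated cells, and -1.21 to 0.51 for Tnfrsf8 in PTXF over c-Rel-deficient cells. For aTregs over rTregs they ran from -0.30 to 0.024 for Cd27 and -0.13 to 0.42 for Tnfrsf18 in WT, and from -0.40 to 0.061 for Cd27 in p65-deficient cells. Against WT they ran from -0.23 to 0.31 for Tnfrsf1b and -0.58 to 0.32 for Tnfrsf8 in c-Rel-deficient rTregs, and from -0.080 to 0.18 for Tnfrsf25 in p65-deficient aTregs. The cause of these shifts was not tested.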
